A study of Homo sapiens and Mus musculus with 8 samples.

Results

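RASSF1, MGMT, RARB, CDH1, CDH13, DAPK1, TIMP3, RUNX3 and FHIT are 9 genes that textbooks list as silenced by promoter methylation in lung cancer. They were found by symbol, ignoring case, in the tables of 2 small cell lung cancer lines. All 9 were among the 20863 genes listed for the human line H146 (NCI-H146), and 8 were among the 16833 listed for the mouse line F1339, whose table used here has no row for Fhit. In H146 most of these genes were clearly detected before treatment, counted over all their transcripts. A vehicle mean of at least 100 normalized counts was found for 7 of 9 (77.8%), and RARB and CDH13 lay under that level. This limit takes no account of gene length, and bulk RNA does not tell whether a gene was silent in part of the cells. Most genes tested also reached 100: of 20783, 5061 had a mean from 100 to 1000 and 8886 had 1000 or more. After decitabine, TIMP3 rose 1.59-fold in H146, the other 8 did not pass the test there in either direction, and 0 of 8 passed it in F1339. Of all genes tested in H146, 15.4% were called higher and 12.3% lower. In F1339 the same test called 0 of 16680 genes, so the 0 of 8 there is no result about these genes.

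RNA was sequenced from 8 libraries, 2 for each arm in each line. H146 cells received vehicle or 0.5 µM decitabine, with decitabine given for 96 h, and F1339 cells received vehicle or 0.5 µM decitabine, with decitabine given for 72 h. The vehicle solvent and its duration are not stated in the labels. Each line is 1 cell line in culture, so a result is about that line, and the labels do not say whether the libraries of an arm came from separate cultures, so p-values measure only the spread between these libraries. The stated aim was to deplete DNMT1, the maintenance DNA methyltransferase, without killing cells.

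CpG-rich promoters of active genes are normally free of methylation. When such a promoter becomes methylated in a tumour, the gene is usually silent, and the maintenance methyltransferase copies the mark at each cell division. Decitabine is a deoxycytidine analog that is built into DNA, traps that enzyme and leads to loss of its protein, so that methylation is diluted as cells divide. RNA alone was measured, so neither methylation nor which promoter was in use is known for these samples.

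Promoter sequences are shown for 3 of the genes: TIMP3, the gene that rose, RARB, which was among the lowest in H146, and MGMT, whose window is the richest in CG and whose transcript was plainly present in vehicle. The windows run from 250 bases before to 50 after a RefSeq transcription start on GRCh38.p14, all on the plus strand, and capitals mark CG dinucleotides, the sites that can carry the methyl group. The TIMP3 window lies at chr22:32801455-32801754, the RARB window at chr3:25428013-25428312 and the MGMT window at chr10:129466991-129467290.
TIMP3: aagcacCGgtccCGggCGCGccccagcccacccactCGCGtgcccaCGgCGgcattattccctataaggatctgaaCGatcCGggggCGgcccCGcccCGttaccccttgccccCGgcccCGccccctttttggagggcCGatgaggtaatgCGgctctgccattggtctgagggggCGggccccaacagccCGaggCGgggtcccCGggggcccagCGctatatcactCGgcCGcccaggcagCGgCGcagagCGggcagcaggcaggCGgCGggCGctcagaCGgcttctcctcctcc
RARB: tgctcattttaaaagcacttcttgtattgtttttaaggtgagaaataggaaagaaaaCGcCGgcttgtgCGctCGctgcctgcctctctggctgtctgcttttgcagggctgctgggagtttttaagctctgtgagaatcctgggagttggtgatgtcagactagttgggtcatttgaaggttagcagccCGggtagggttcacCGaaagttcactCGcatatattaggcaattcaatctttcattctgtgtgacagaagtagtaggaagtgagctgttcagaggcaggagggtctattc
MGMT: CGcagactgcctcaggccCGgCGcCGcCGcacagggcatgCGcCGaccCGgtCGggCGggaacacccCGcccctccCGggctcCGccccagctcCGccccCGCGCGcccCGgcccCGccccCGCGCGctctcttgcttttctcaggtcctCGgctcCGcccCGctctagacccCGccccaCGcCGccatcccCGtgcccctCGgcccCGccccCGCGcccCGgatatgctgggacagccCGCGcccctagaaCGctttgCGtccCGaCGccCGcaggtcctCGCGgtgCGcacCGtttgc

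The TIMP3 window holds 31 CG and the MGMT window 45, against a median of 14 over the 35116 human windows in the table. As many CG as in TIMP3 occur in 20.7% of all windows, and as many as in MGMT in 3.48%. The RARB window holds 7, and 63.2% of windows hold as many or more. It carries 1 match to the retinoic acid response element motif, the half-sites GGTTCA and AGTTCA with 5 bases between them, searched on both strands, which 6 of the 35116 windows hold (0.0171%). The match reads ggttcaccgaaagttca and starts 53 bases before the transcription start, at chr3:25428210-25428226. Windows were found for 7 of the 9 genes, 13 in all, and CDH1 and CDH13 have none in the table. Another RARB window, at chr3:24829071-24829370, holds 33 CG, but none of the GENCODE starts of RARB lies within 100 bases of its start. DAPK1 has windows with 37 and 33 CG, RUNX3 with 15 and 38, and FHIT with 0 and 13. The RASSF1 window at chr3:50337401-50337700, on the minus strand, holds 33 CG and contains the start of 1 of the 10 GENCODE transcripts, RASSF1-201. Counts per gene cannot separate the transcripts that begin there from those that begin upstream, such as RASSF1-202 and RASSF1-203.

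**Figure D1:**
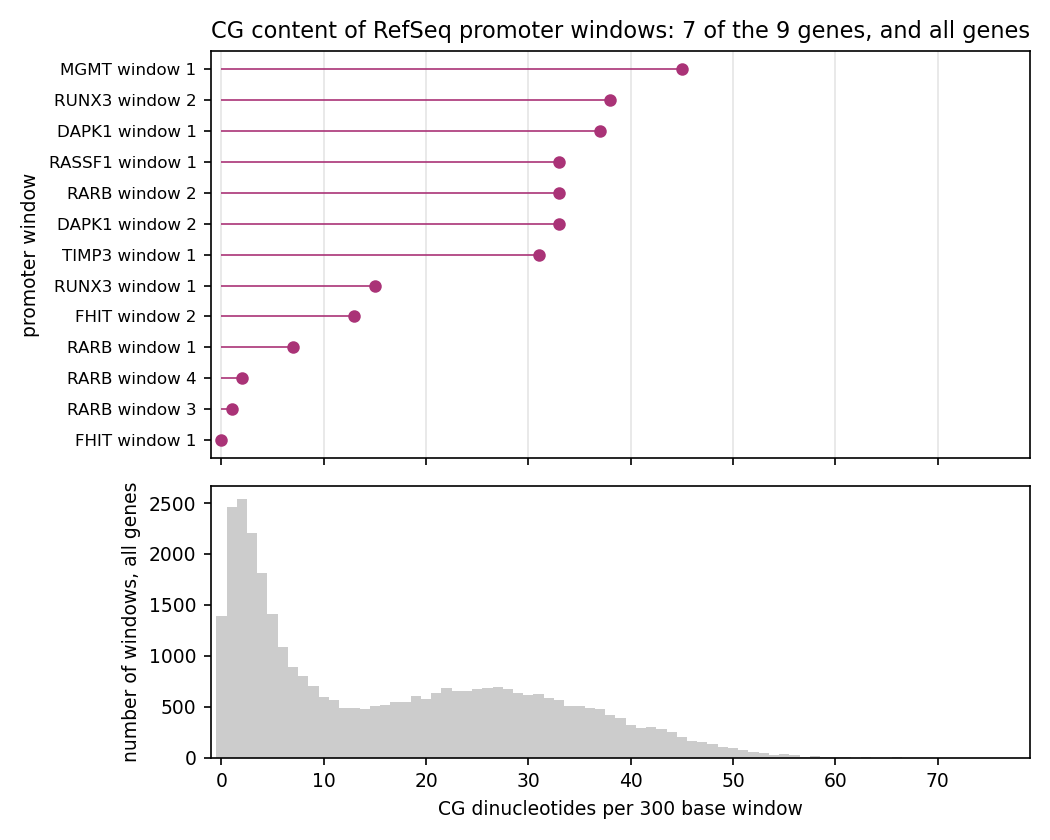
CG dinucleotides in each RefSeq promoter window of 300 bases (x axis), for the 13 windows of 7 genes in the upper panel, 1 point a window, and as a histogram of all 35116 human windows in the lower panel. The MGMT window has the most, 45, and 1 FHIT window has 0, so the genes span both the CG-poor and the CG-rich part of the histogram.

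Depth was similar across libraries, with 62462654 to 67108249 recovered reads in H146 and 61364041 to 67892360 in F1339, so that 1 read is close to 1 normalized count, and a gene with few counts is known only loosely. In F1339 the libraries numbered 2 stand apart from those numbered 1: over the genes tested, the SD of the log2 difference between numbers was 0.684, larger than the 0.575 between decitabine and vehicle (H146 0.279 and 0.826). The neuroendocrine markers, 8 of 8, were present in both lines. DNMT1 transcript was 15511 ± 159 normalized counts in H146 vehicle and 14102 ± 74.0 with decitabine (SD, n = 2 each; limma adjusted p = 0.350), and 49022 ± 1032 and 45687 ± 1269 in F1339 (SD, n = 2 each; limma adjusted p = 0.934).

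Of all genes tested, decitabine was called higher for 15.4% and lower for 12.3% in H146 (limma, adjusted p under 0.05). Among the 9 genes, 1 was called higher, TIMP3, a share of 11.1%, and 0 were called lower. At an unadjusted p under 0.05, 3 of the 9 passed, TIMP3 and CDH1, higher, and MGMT, lower, as did 7857 of the 20783 genes tested. The quasi-likelihood test of edgeR on recovered reads called the same 1 higher and 0 lower, and DESeq2 called 0 in both directions. The vehicle and decitabine libraries did not overlap for 5 of the 9 genes, 55.6%, against 62.1% of all genes tested, so neither share is above the background. The median log2 change of the 9 was 0.06, beside -0.01 over all genes. Without vehicle replicate 1 limma called 3 genes higher (TIMP3, CDH1, DAPK1), and without either decitabine library it called 0.

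**Figure D2:**
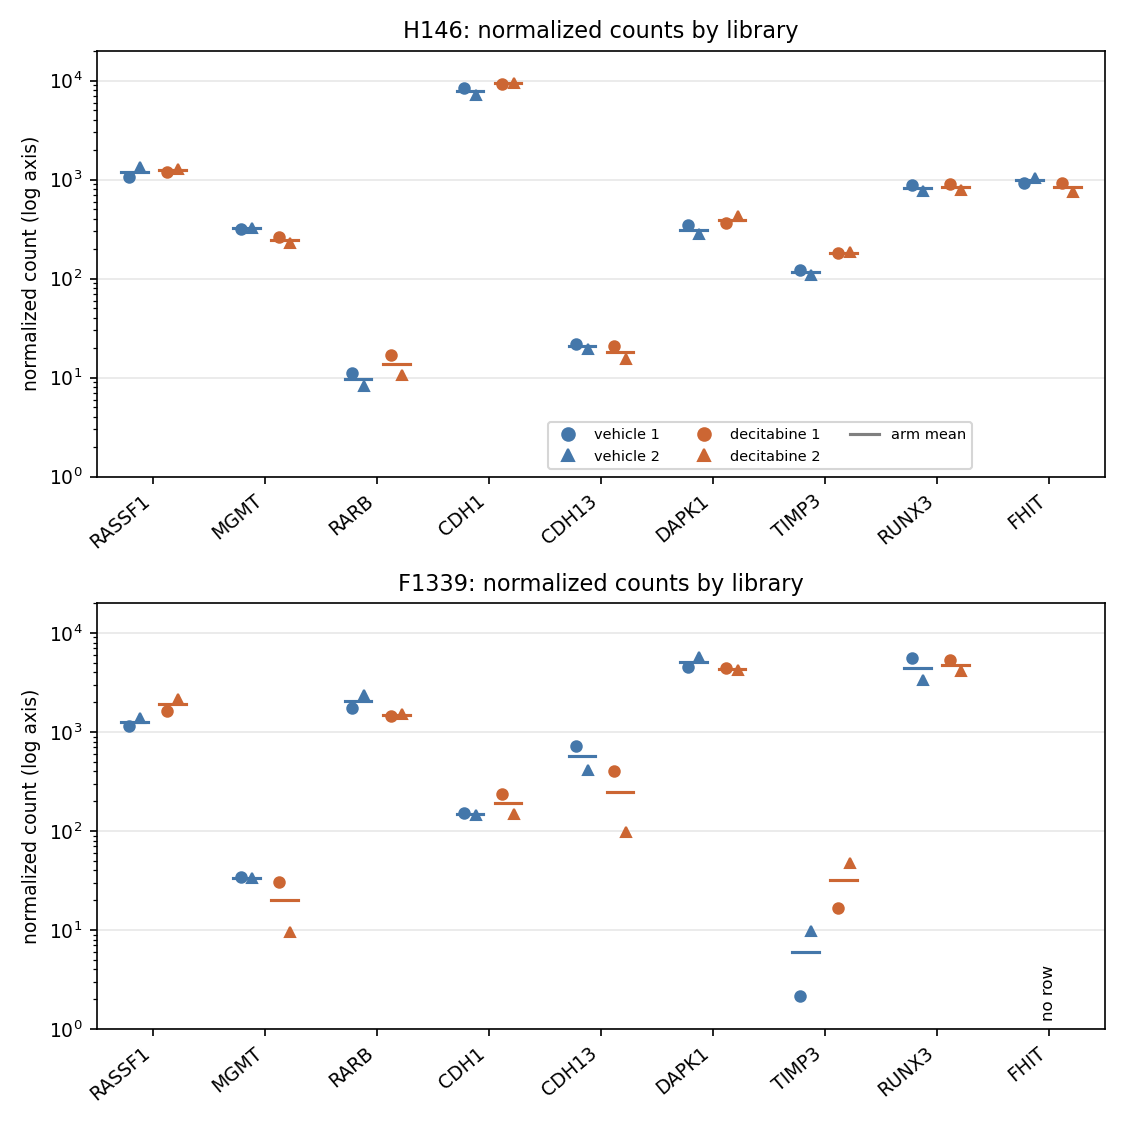
Normalized count on a log axis for each of the 9 genes in each library of H146 (upper) and F1339 (lower); circles are replicate 1, triangles replicate 2, blue vehicle, orange decitabine, and the short lines are arm means. In H146, RARB and CDH13 have the fewest counts in both arms and TIMP3 libraries are separated, with 110 to 121 in vehicle and 180 to 186 with decitabine; FHIT has no row in F1339.

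TIMP3 encodes a matrix-bound inhibitor of metalloproteinases. On GRCh38 the gene lies at chr22:32801701-32863043, plus strand, and has 1 GENCODE transcript, which begins in the window printed above. In H146 it had 121 and 110 normalized counts in vehicle and 180 and 186 with decitabine. Both decitabine libraries were above both vehicle libraries. Its log2 change was 0.66 ± 0.20 (SE; 95% interval 0.24 to 1.08; limma adjusted p = 0.0167). Reads behind these values were 121, 107, 180 and 193. The call was lost without decitabine replicate 1 (limma adjusted p = 0.159) or 2 (0.188), and DESeq2 gave an adjusted p of 0.0532; in the authors' deposited table the adjusted p was 0.0536. The gene thus had transcript in vehicle, at 25.1 normalized counts per kb of exon against a median of 145 for genes with a length. That level was at percentile 24.5 of those genes, and bulk RNA does not tell whether part of the cells were silent. The ratio of means was 1.59, and the 95% interval reached 2.12-fold.

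SYN3, a synapsin gene on the opposite strand that spans TIMP3 without sharing exon bases, was 675 in vehicle and 716 with decitabine (limma adjusted p = 0.735; its log2 change turned negative, -0.10, without decitabine replicate 2). TIMP3 is also made by stromal cells. Of the fibroblast markers 6 of 7 were present in the H146 table, LUM having no row, with sums of 2808 to 3103 normalized counts in vehicle and 3851 to 4308 with decitabine. Most of that sum was PDGFRA (2174 and 3099, called higher, as were COL1A1 and COL1A2), while COL3A1 was called lower (361 and 253; limma adjusted p = 0.0188) and DCN and PDGFRB were not called. Of the endothelial markers 4 of 5 were present, KDR having no row, with sums of 376 to 433 and 1194 to 1230. Lung epithelial markers were present for 3 of 6, SFTPC, SFTPB and SCGB1A1 having no row, with sums of 2459 to 2738 and 4866 to 5265. Most of the lung epithelial sum was FOXJ1 (2449 and 4871, called higher, as was KRT5), while AGER was not called (126 and 121). The part of these in the TIMP3 result was not tested. In bulk RNA a change in the number of cells of a type and a change in RNA per cell cannot be told apart.

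Of 9 other tested genes of the metalloproteinase system in H146 (TIMPs, metalloproteinases they inhibit, and SYN3), 3 rose and 6 did not pass, beside 15.4% of all genes called higher, with a median log2 change of 0.37. TIMP1, a soluble inhibitor, went from 378 ± 42.6 to 962 ± 201 normalized counts (SD, n = 2 each; log2 1.33, limma adjusted p = 1.35e-07). MMP14, a membrane-bound collagenase, went from 44.2 ± 2.87 to 153 ± 15.5 (SD, n = 2 each; log2 1.77, limma adjusted p = 6.58e-06). MMP15, a related membrane protease, went from 2691 to 3473 (log2 0.37, limma adjusted p = 0.00859), a call lost on removal of vehicle replicate 2 (0.114) or of decitabine replicate 1 (0.142) or 2 (0.0594).

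RARB encodes a nuclear receptor for retinoic acid, and it is itself a known retinoic acid target through the element shown above (chr3:25174332-25597932, plus strand of GRCh38). RARB was among the lowest of the 9 in H146, with 11.03 and 8.21 normalized counts in vehicle and 17 and 10.6 with decitabine. The arms overlapped, and the reads behind them were 11, 8, 17 and 11. The fitted log2 change was 0.46 ± 0.54 (SE, 95% interval -0.65 to 1.57, limma adjusted p = 0.580), an interval of 0.636-fold to 2.97-fold. The fit used log2(normalized count + 1), which understates the change of low genes, so 2.97 is not a firm upper limit. The level stayed at 3.74 per kb of exon with decitabine, beside 2.60 in vehicle.

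A gene under 10 in vehicle can enter the test through its decitabine libraries alone, which raises the share called higher in that band: 64.8% of 799 genes. RARB is one of these 799 and was not called. TOP2B, a topoisomerase gene on the opposite strand that shares 28 exon bases with RARB, went from 12983 to 15875 (log2 0.29, limma adjusted p = 0.0435), a call lost when any 1 library was left out (0.0806 to 0.343). How strands were counted is not given in the sources used here, so reads in those shared bases cannot be assigned.

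Of 15 other genes of retinoid uptake, binding, signalling and breakdown that were tested, 5 rose and the others did not pass, beside 15.4% of all genes called higher, with a median log2 change of 0.34. CRABP1, a cytoplasmic retinoic acid binding protein, went from 160 ± 18.4 to 1568 ± 218 normalized counts (SD, n = 2 each), a log2 change of 3.28 ± 0.15 (SE; limma adjusted p = 4.99e-15). STRA6, the membrane receptor that takes up retinol, went from 1498 to 3098 (log2 1.05, limma adjusted p = 4.29e-08). RARA, the sister receptor, and CYP26B1, an enzyme that breaks down retinoic acid, rose too and were named after their values were seen. RARA went from 402 to 581 and CYP26B1 from 1393 to 1721 (limma adjusted p = 0.00744 and 0.0357). Without decitabine replicate 1 the count was 2 higher, and without vehicle replicate 1 it was 1 lower.

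**Figure D3:**
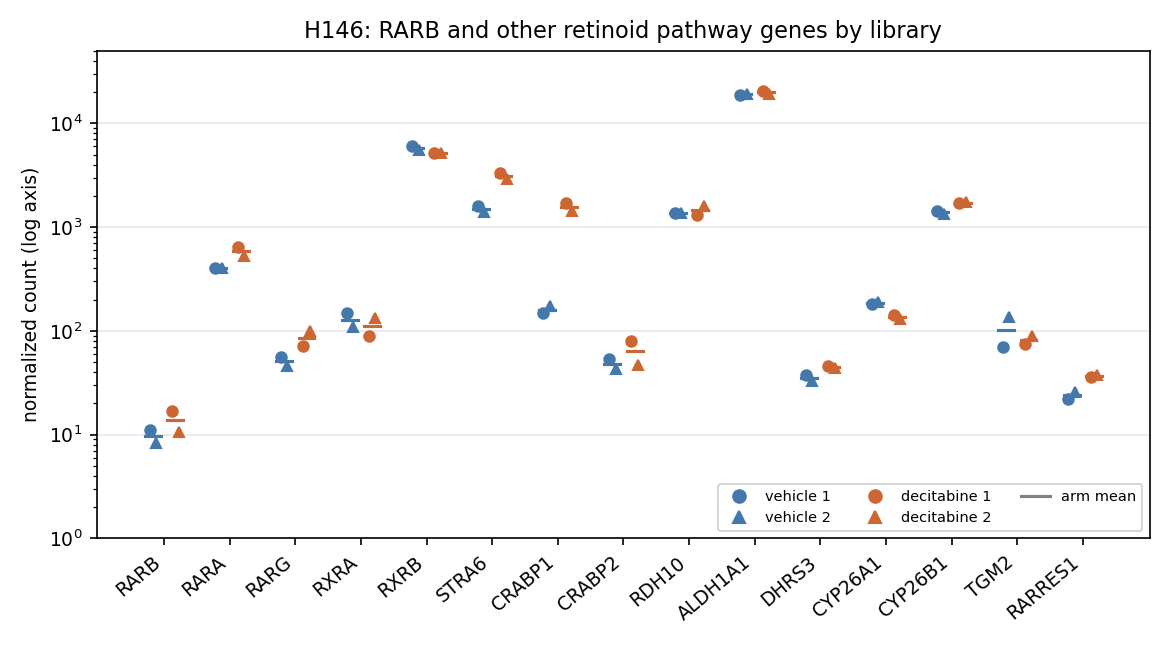
Normalized count on a log axis for RARB and other retinoid genes in each H146 library; circles are replicate 1, triangles replicate 2, blue vehicle, orange decitabine, and short lines arm means. Of the genes plotted, RARB has the fewest counts in both arms, and CRABP1 has 147 and 173 in vehicle against 1722 and 1413 with decitabine.

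CDH13 encodes an atypical cadherin held to the membrane by a lipid anchor instead of a transmembrane domain (chr16:82626803-83800640, plus strand of GRCh38). In H146 it had 22.1 and 19.5 normalized counts in vehicle and 21.0 and 15.5 with decitabine (reads 22, 19, 21 and 16). The arms overlapped, and per kb of exon it was the lowest of the 9, at 1.86 in vehicle and 1.63 with decitabine. The log2 change was -0.19 ± 0.44 (SE; 95% interval -1.09 to 0.71; limma adjusted p = 0.789). Its sign turned (0.02) without decitabine replicate 2, so no direction is given.

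CDH1 encodes E-cadherin, the adhesion molecule of epithelia, and it was the most abundant of the 9 in H146 (chr16:68737225-68835548, plus strand of GRCh38). The libraries had 8478 and 7173 normalized counts in vehicle and 9305 and 9379 with decitabine, so both decitabine libraries were above both vehicle libraries. Its log2 change was 0.26 ± 0.10 (SE; 95% interval 0.05 to 0.47), and at a limma adjusted p of 0.0645 it missed the threshold. It passed without vehicle replicate 1 (0.0179) and after rescaling to a common total (0.0478) or a common upper quartile (0.0324). The interval excludes a change of 2-fold.

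Among other cadherins, catenins and repressors of CDH1, 6 of 17 rose and 1 fell, beside 15.4% and 12.3% of all genes. The median log2 change was 0.17. SNAI2, a transcriptional repressor of CDH1, went from 706 to 1369 (log2 0.96, limma adjusted p = 1.29e-06). CTNND1, which encodes the catenin p120 that binds the cadherin tail, went from 4072 to 5736 (log2 0.50, limma adjusted p = 0.000516), a call lost when the variance trend was left out (0.0850). CDH4, which encodes R-cadherin, fell from 805 to 543 (log2 -0.56, limma adjusted p = 0.00342), a call lost on removal of vehicle replicate 2 (0.0595) or of decitabine replicate 1 (0.127) or 2 (0.0536). CDH2, CDH3, CTNNB1 and TWIST1 make up the 6 and were named after their values were seen. Leaving out either decitabine library left 3 higher, and leaving out the variance trend left 1. The count lower was 2 without vehicle replicate 1 and 0 without vehicle replicate 2, without either decitabine library or without the variance trend.

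DAPK1 encodes a calcium- and calmodulin-dependent kinase that takes part in cell death and autophagy (chr9:87497228-87708633, plus strand of GRCh38). In H146 it had 344 and 282 normalized counts in vehicle and 361 and 424 with decitabine. The arms did not overlap, with decitabine higher, but the nearest pair, 344 and 361, lay close together. The fitted log2 change was 0.33 ± 0.16 (SE; 95% interval -0.00 to 0.66; limma adjusted p = 0.135), and it passed without vehicle replicate 1 (0.0320). Of 2 related genes tested, DAPK2 rose, beside 15.4% of all genes called higher. It went from 149 to 220 (log2 0.56, limma adjusted p = 0.0299), a call lost with DESeq2 (adjusted p = 0.0834). The call was also lost on removal of vehicle replicate 1 or of either decitabine library.

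RASSF1 encodes a scaffold protein that binds the MST kinases of the Hippo pathway (chr3:50329782-50340980, minus strand of GRCh38). Over all its transcripts the gene was expressed in vehicle, with 1054 and 1338 normalized counts, and stood at 1196 and 1282 with decitabine. These counts do not show which of its promoters was in use, so they do not tell whether a given promoter was silent. The arms overlapped. The log2 change was 0.06 ± 0.12 (SE; 95% interval -0.19 to 0.31; limma adjusted p = 0.764), and it turned to -0.11 without vehicle replicate 1. RASSF1-AS1, an antisense gene that shares 659 exon bases, had 11.03 and 17.4 normalized counts in vehicle and 4.0 and 8.70 with decitabine (limma adjusted p = 0.182).

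In its family and the Hippo kinases, 1 of 13 genes rose and 3 fell, beside 15.4% and 12.3% of all genes. The median log2 change was -0.01. RASSF6, a relative of RASSF1, fell from 9453 to 5646 normalized counts (log2 -0.74, limma adjusted p = 4.86e-06). STK3, which encodes the kinase MST2, fell from 542 to 345 (log2 -0.64, limma adjusted p = 0.00204), a call lost without decitabine replicate 1 (0.0838) or 2 (0.0552). RASSF4 rose from 359 to 516 (log2 0.52, limma adjusted p = 0.00740), a call lost without decitabine replicate 1 (0.138) or 2 (0.0857). LATS1, a kinase downstream of MST2, is the other that fell and was named after its values were seen. Without either decitabine library 0 were higher and 1 was lower.

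Among 13 tested genes of the chromosome 3 cluster that holds RASSF1, 3 rose and 1 fell, beside 15.4% and 12.3% of all genes. The median log2 change was 0.17. SEMA3F, a secreted semaphorin, rose from 342 ± 11.3 to 848 ± 46.7 (SD, n = 2 each; log2 1.31, limma adjusted p = 4.44e-08). IFRD2 fell from 3792 to 2262 (log2 -0.75, limma adjusted p = 2.92e-06). CACNA2D2, an auxiliary calcium channel subunit, went from 643 to 838 (log2 0.38, limma adjusted p = 0.0219), a call lost without decitabine replicate 1 (0.152) or 2 (0.149). GNAI2, an inhibitory G protein subunit, completes the 3 and was named after its values were seen. Without either decitabine library 1 of the 3 was called, and without vehicle replicate 2 the count lower was 2.

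MGMT encodes the enzyme that removes methyl groups from the O6 position of guanine and so protects cells from alkylating drugs (chr10:129467184-129768007, plus strand of GRCh38). In H146 it had 318 and 325 normalized counts in vehicle and 265 and 231 with decitabine. Both decitabine libraries were below both vehicle libraries. Its log2 change was -0.38 ± 0.16 (SE; 95% interval -0.72 to -0.04), and the limma adjusted p of 0.0919 missed the threshold. Of 8 other genes of alkylated base repair and mismatch repair, 1 fell, beside 12.3% of all genes, and the others did not pass. The median log2 change of the 8 was above 0, at 0.09. The gene that fell was ALKBH2, a demethylase of alkylated DNA, which went from 1486 to 1068 (log2 -0.48, limma adjusted p = 0.00262), a call lost without decitabine replicate 2 (0.109).

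RUNX3 encodes a Runt-domain transcription factor that acts with the partner CBFB (chr1:24899511-24965121, minus strand of GRCh38). It had 880 and 765 normalized counts in H146 vehicle and 895 and 787 with decitabine, so the arms overlapped. The fitted log2 change was 0.03 ± 0.13 (SE; 95% interval -0.23 to 0.29; limma adjusted p = 0.875), and its sign turned without vehicle replicate 2 (-0.07) or decitabine replicate 1 (-0.06). Of 4 related genes 1 rose and 2 fell, beside 15.4% and 12.3% of all genes, with a median log2 change of -0.36. RUNX1T1, a corepressor, fell from 970 to 511 (log2 -0.93, limma adjusted p = 3.81e-06). RUNX1, the haematopoietic Runt factor, rose from 483 to 732 (log2 0.60, limma adjusted p = 0.00105), a call lost without decitabine replicate 2 (0.0552). CBFB fell from 5113 to 4161 (log2 -0.30, limma adjusted p = 0.0269), a call lost on removal of vehicle replicate 2 (0.164) or of decitabine replicate 1 (0.223) or 2 (0.0802).

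FHIT encodes a histidine triad hydrolase and spans a common fragile site (chr3:59749310-61251459, minus strand of GRCh38). In H146 it had 933 and 1044 normalized counts in vehicle and 932 and 748 with decitabine. The arms did not overlap, but the nearest pair, 933 and 932, differed by less than 1 count. The log2 change was -0.24 ± 0.13 (SE; 95% interval -0.50 to 0.02; limma adjusted p = 0.172). Of 6 relatives and fragile-site genes 1 fell, beside 12.3% of all genes, and the others did not pass. The median log2 change of the 6 was above 0, at 0.23. The gene that fell was WWOX, an oxidoreductase gene at another fragile site, which went from 1477 to 974 (log2 -0.60, limma adjusted p = 0.000253). Without vehicle replicate 1 the count higher was 1, after rescaling to a common upper quartile it was 3, and the WWOX call was lost when the variance trend was left out (0.0566).

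**Figure D4:**
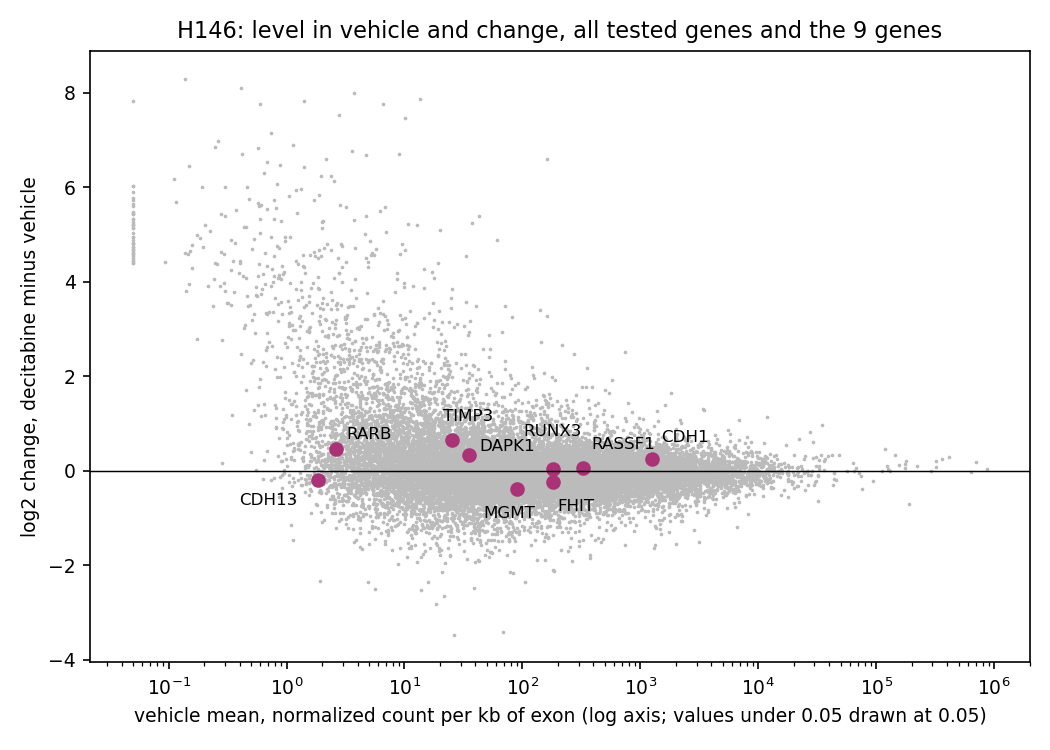
Log2 change (y axis, decitabine minus vehicle, on log2(normalized count + 1)) against the vehicle mean in normalized counts per kb of exon (x axis, log scale) for the tested H146 genes with a length, in grey, and the 9 genes, in purple. RARB and CDH13 lie at the low end, at 2.60 and 1.86, with changes of 0.46 and -0.19, while many grey points at that level lie well above them. Genes low in vehicle can be plotted because their decitabine libraries alone reached 10, which favours high points there. RARB (11.03 in vehicle replicate 1) and CDH13 (22.1 and 19.5) reached 10 in vehicle, so the contrast with the grey points follows in part from the filter.

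Ordered by level per kb of exon in H146 vehicle, CDH1 was highest, at 1267, followed by RASSF1 at 325, RUNX3 at 182, FHIT at 182, MGMT at 90.4, DAPK1 at 35.2, TIMP3 at 25.1, RARB at 2.60 and CDH13 at 1.86. Libraries of RUNX3 (194 and 169) and FHIT (172 and 192) overlapped, and the other neighbours in the order did not. The last pair rests on 8 to 22 reads a library. Among the 20678 tested genes with a length, the percentile of the level was 87.5 for CDH1, 24.5 for TIMP3, 3.56 for RARB and 2.23 for CDH13. Of the 6037 genes with a vehicle mean from 10 to 100 normalized counts, the band of CDH13, 12.6% were called higher, and of the 5061 from 100 to 1000, the band of TIMP3, 18.2%.

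A further list holds genes often reported as methylated in lung cancers. Of 30 tested in H146, 6 rose and 3 fell, beside 15.4% and 12.3% of all genes, with a median log2 change of 0.20. HOXA9, a homeobox transcription factor, went from 58.0 ± 16.7 to 464 ± 3.67 normalized counts (SD, n = 2 each; log2 3.01, limma adjusted p = 4.58e-11). DKK3, a secreted protein of the Dickkopf family, went from 1791 to 3585 (log2 1.0, limma adjusted p = 4.89e-08). IGFBP3, an insulin-like growth factor binding protein, fell from 127 to 53.7 (log2 -1.25, limma adjusted p = 0.000608), a call lost without decitabine replicate 2 (0.0640), where 0 of the list were lower. PYCARD, CDKN2B, TFPI2 and CYGB also rose and SFRP5 and SLIT2 fell; they were named after their values were seen. Without the variance trend, limma no longer called TOP2B, MMP15, DAPK2, STK3, RASSF4, CACNA2D2, ALKBH2, CDH4 and CBFB (adjusted p from 0.0619 for RASSF4 to 0.206 for TOP2B).

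In F1339, limma called 0 of 16680 genes higher and 0 lower (0.00% each), 932 passed an unadjusted p of 0.05, edgeR called 0 and DESeq2 called 77 higher (0.462%) and 30 lower (0.180%). Among the 8 genes, limma, edgeR and DESeq2 called 0 in either direction, and 2 passed the unadjusted threshold, Rassf1 and Timp3. With the replicate number as a block, which no label names as a pairing, the calls of Rassf1, Timp3 and Cdh13 differed. Those values are given in the section on processing choices. The arms did not overlap for 6 of 8, 75%, beside 35.9% of all genes tested, with 2 higher and 4 lower with decitabine. Timp3 entered the test through its decitabine libraries alone, so it had to differ, and without it 5 of 7 did not overlap. No direction was shared by the 6. Exon lengths for the mouse were not used here, so levels are not compared between genes.

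Timp3 rested on few reads in F1339. It had 2.16 and 9.76 normalized counts in vehicle and 16.7 and 47.0 with decitabine (reads 2, 10, 17 and 49). Both decitabine libraries were above both vehicle libraries, but only they reached the 10 normalized counts needed for testing. The filter thus fixed this separation and the direction of the change, so neither is evidence of a rise. Its log2 change was 2.32 ± 0.86 (SE; 95% interval 0.08 to 4.57; limma adjusted p = 0.890), and the ratio of means was 5.35, with an interval from the fit of 1.06 to 23.7. Within number 1 it was 2.49 and within number 2 it was 2.16 on the log2 scale. In F1339 the summed fibroblast markers were 1721 and 1793 in vehicle and 1520 and 1895 with decitabine, with 4 of 7 present. Most of that sum was Pdgfra (means of 1483 and 1261). Means of Col1a1 (54.8 and 181) and Dcn (39.6 and 82.5) were higher with decitabine, and Pdgfrb had 180 and 183. None of these was called. The endothelial sums were 462, 410, 770 and 1233, with 5 of 5 present. The part of these markers in the Timp3 values was not tested.

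Rassf1 had 1143 and 1371 normalized counts in F1339 vehicle and 1623 and 2166 with decitabine, so the arms did not overlap. The fitted log2 change was 0.58 ± 0.21 (SE; 95% interval 0.03 to 1.14; limma adjusted p = 0.890). Mgmt had 34.6 and 33.2 in vehicle and 30.5 and 9.60 with decitabine, the last resting on 10 reads. All of its libraries were low, and the log2 change was -0.93 ± 0.65 (SE; limma adjusted p = 0.907).

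Rarb was plainly expressed in the mouse line. It had 1742 and 2379 normalized counts in vehicle and 1466 and 1509 with decitabine, and the decitabine libraries were the lower ones. The log2 change was -0.45 ± 0.20 (SE; 95% interval -0.97 to 0.07; limma adjusted p = 0.890). Cdh13 varied widely between libraries, with 728 and 412 in vehicle and 402 and 97.9 with decitabine. Its log2 change was -1.46 ± 0.74 (SE; 95% interval -3.38 to 0.46; limma adjusted p = 0.899).

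Dapk1 had 4498 and 5699 normalized counts in F1339 vehicle and 4399 and 4250 with decitabine, so the arms did not overlap and decitabine was lower (log2 -0.23 ± 0.16, SE; limma adjusted p = 0.907). Cdh1 had 152 and 143 in vehicle and 238 and 150 with decitabine, which overlapped (log2 0.35 ± 0.35, SE; limma adjusted p = 0.923). Runx3 had 5579 and 3354 in vehicle and 5279 and 4143 with decitabine, which overlapped too (log2 0.11 ± 0.29, SE; limma adjusted p = 0.975), and its sign turned without vehicle replicate 2 (-0.25) or decitabine replicate 1 (-0.06).

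**Figure D5:**
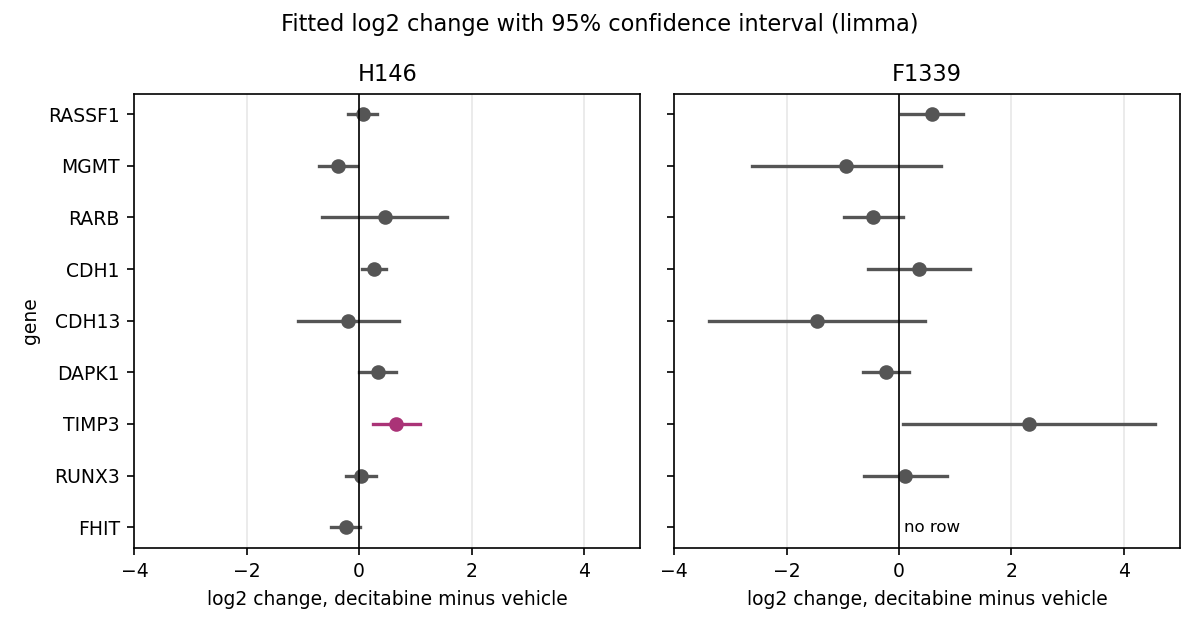
Fitted log2 change, decitabine minus vehicle, with its 95% confidence interval from limma for each gene in H146 (left) and F1339 (right); the purple point passed an adjusted p of 0.05. Only TIMP3 in H146 did, at 0.66 with an interval of 0.24 to 1.08, and the F1339 intervals are wider, up to 0.08 to 4.57 for Timp3. Timp3 entered the test through its decitabine libraries alone, which fixed its direction.

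The related gene lists gave 0 calls in F1339 with limma, which called 0 of all 16680 genes there, so this is no result about the lists. DESeq2 called 1 gene of the cadherin list lower, beside 0.180% of all genes. With the replicate number as a block, some lists had calls, in both directions. Median log2 changes were -0.01 for the RASSF and Hippo list, 0.04 for the neighbours of RASSF1, -0.17 for repair, 0.25 for retinoid genes, 0.04 for cadherins and 0.49 for metalloproteinases and their inhibitors. They were -0.17 for RUNX relatives, -0.26 for histidine triad and fragile-site genes and 0.10 for the wider methylated list, beside -0.01 over all genes. The 1 death-associated kinase tested, Dapk3, had 3755 and 3791 normalized counts. Among abundant genes of these lists, Rxra, a partner of the retinoid receptors, stood at 6394 ± 314 in vehicle and 7350 ± 1306 with decitabine, and Adam10, a membrane metalloproteinase, at 5592 ± 179 and 6958 ± 954 (SD, n = 2 each; limma adjusted p = 0.911 and 0.890).

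The change with decitabine was compared between the lines, gene by gene, in a fit of all 8 libraries over 11845 symbols found in both tables, in which 54 (0.456%) differed. Of the 8 genes, 0 differed, by limma adjusted p. DAPK1 had the smallest p of them, with log2 changes of 0.33 in H146 and -0.23 in F1339, a difference of 0.56 (95% interval -0.02 to 1.13; limma adjusted p = 0.367). The difference for TIMP3 was -1.66 (95% interval -3.92 to 0.60; limma adjusted p = 0.490) and for RARB 0.91 (95% interval -0.17 to 1.99; limma adjusted p = 0.430). These intervals include 0 and also differences of over 1 on the log2 scale, so they do not show that the lines respond alike. The lines also differ in species, time and table normalization, which cannot be told apart.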

How the data were processed

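RNA was sequenced from 8 libraries of H146 and F1339 cells, 2 per arm. The deposited tables give 1 signal value per gene and library, normalized counts per the file headers, which from their values are counts divided by 1 factor per library, and the authors' log2 fold changes, p-values and adjusted p-values. The submitters' processing notes list DESeq2, featureCounts, Subread 1.5.2, STAR 2.5.2b and Trimmomatic 0.36, with no role or order, and give GRCh38 as the build, also for the mouse samples. Annotation, strandedness and any other mouse build are not given in the sources used. In the authors' deposited table for H146 the fold runs from decitabine to vehicle, so its sign was turned.

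Whole reads could be recovered for 100% of values, within 0.001 read. The lowest total of a listed gene is 41 reads in each table. Tests used log2(normalized count + 1), which understates the change of low genes. A gene was tested where at least 2 of the 4 libraries of the line had 10 or more (20783 genes of H146, 16680 of F1339). Each line had its own limma 3.58.1 fit in R 4.3.3, with treatment as the single term and a variance trend in eBayes, and Benjamini-Hochberg adjustment over all tested genes and a threshold of 0.05. Folds are ratios of mean normalized counts. All 9 genes in H146 and all 8 in F1339 passed the filter, Timp3 through its decitabine libraries alone. The difference between lines was an interaction term over 8 libraries. Levels per kb use the merged exon length of the GENCODE annotation on GRCh38, matched by Ensembl ID, and promoter windows come from RefSeq (GRCh38.p14). The procedure was tested on simulated data.

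Alternatives were adding 5 or 0.5 in place of 1, testing every listed gene, a minimum of 50, rescaling to the same total or upper quartile, leaving out the variance trend, the count tests of edgeR 4.0.16 and of DESeq2 1.42.0 on recovered reads, a block for the replicate number, and the removal of 1 library at a time, where the lone library of an arm is taken to vary as much as those of the other arm. The genes and lists were chosen with earlier results of these data known. Named in the text are all 9 genes, DNMT1, genes overlapping one of the 9, and per list and line up to 3 called genes of largest change with a mean of at least 50, or else the 2 most abundant; of the latter, F1339 genes are given in part. A gene that the rule names is not reported here. Others are said to be named after their values were seen.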

Additional observations from a re-analysis of the deposited data

How the results depend on the processing

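In H146 the count of the 9 genes called higher was 1, and it became 2 after rescaling to the same total or to the same upper quartile (CDH1 joined), 0 with DESeq2 and 0 to 3 with 1 library left out. Genes called higher numbered 3198, 1581 without a variance trend and 1534 to 3054 with 1 library left out. Genes called lower numbered 2554, 583 without a variance trend and 987 to 2498 with 1 library left out. In F1339 DESeq2 called 77 higher and 30 lower where limma called 0. TIMP3 in H146 was called in 11 of 14 alternatives, with a log2 change of 0.59 to 0.73. Signs that turned belong to genes that were not called. With 1 library left out, H146 log2 changes ranged from -0.11 to 0.23 for RASSF1, -0.067 to 0.13 for RUNX3, -0.40 to 0.017 for CDH13, -0.29 to 0.13 for FTLP14, a pseudogene inside CDH1, and -0.10 to 0.25 for SYN3. In F1339 they ranged from -0.25 to 0.48 for Runx3, -1.10 to 1.07 for Rassf8, -0.023 to 0.040 for Stk4, -0.46 to 0.30 for Cacna2d2, -0.060 to 0.22 for Gnai2, -0.33 to 0.014 for Rxrb, -0.13 to 0.32 for Ctnnb1, -0.062 to 0.094 for Dapk3, -0.25 to 0.030 for Cdkn2a and -0.13 to 0.23 for Apc. Rassf8 was -0.01 and became 0.080 and 0.032 after rescaling to total and upper quartile, 0.12 with edgeR and 0.11 with DESeq2, and Cacna2d2 became 0.015 after rescaling to total. The difference between lines ranged from -0.23 to 1.34 for MGMT, -0.42 to 0.24 for CDH1 and -0.45 to 0.29 for RUNX3. The cause was not tested.

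The replicate numbers do not pair the samples by any label, and there are 2 pairs a line. Same-numbered libraries deviated together in F1339 (correlation 0.685) and not in H146 (-0.03). With the number as a block, F1339 gave 777 genes higher and 548 lower, of 16680 tested. Of the 8 genes 2 were higher, Rassf1 (limma adjusted p = 0.0139) and Timp3 (0.0221), and 1 was lower, Cdh13 (0.00788). Timp3 entered the test through its decitabine libraries alone, so the filter fixed its direction. In H146 the block gave 2936 higher and 2256 lower, with 1 of the 9 higher.

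Depth limits the low genes, with 2 libraries per arm. Each H146 value of RARB and CDH13 rested on 8 to 22 reads, and each F1339 value of Timp3 on 2 to 49. The interval for RARB ran from 0.636-fold to 2.97-fold and that for Timp3 from 1.06-fold to 23.7-fold. Both come from log2(normalized count + 1), which understates the change of low genes, so the size of these changes is known only loosely. Of the 280 recomputed list counts in H146, 39 moved by over 1.5 times, and of the 280 in F1339, 11 did.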
